A study of Mus musculus with 24 samples.

Results

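The genes described here encode the constitutive 26S proteasome, the protease that degrades ubiquitin-tagged proteins in the cytosol and nucleus. Members were all protein-coding mouse genes whose symbol is Psma, Psmb, Psmc, Psmd or Psme followed by a number, without the interferon-inducible catalytic subunits Psmb8, Psmb9 and Psmb10. This gave 42 of the 35519 genes summed. They comprised 16 subunits of the 20S core (8 alpha and 8 beta), 9 subunits of the base of the 19S cap, 8 subunits of its lid, 3 chaperones of base assembly and 5 activator genes. The remaining gene, Psmc3ip, matches the naming rule but encodes a DNA recombination factor and not a subunit.

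The core is a barrel in which alpha rings gate the entrance and beta rings carry the catalytic sites. Its cap captures tagged proteins: the lid removes the ubiquitin chain and the ATPase ring of the base unfolds the protein and threads it into the core. Activator rings made of Psme proteins open the core without ubiquitin, and interferon-induced beta subunits can replace the constitutive catalytic ones in new particles. Microglia, the macrophages that reside in the brain, take up debris and cell corpses, which are degraded mainly in lysosomes. Proteasomes degrade cytosolic proteins and supply peptides for antigen presentation on class I molecules.

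RNA was measured in 24 libraries of 1000 cells each, sorted from whole brain of C57BL/6 mice as Ly6C-negative, CD11b-positive, Fcrls-positive microglia and prepared by Smart-Seq2, a full-length method without strand or molecular identifiers. Mice of both sexes were either wild type (WT) or knocked out for the synaptic adhesion protein neuroligin-4 (NL4-/-), and a library's state was control or phagocytosis. For each of the 4 combinations of sex and genotype there were 2 libraries in the control state and 4 in the phagocytosis state; the design text gives 5 in the phagocytosis state, 1 of which is not analysed here. No age is labelled, and nothing says what was taken up or whether uptake was in the animal or in culture. The genotype label names no promoter, Cre or construct, and the knocked-out gene was not analysed here. By the design text the replicates are biological, and p-values measure the spread between these samples only.

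Total expected reads ran from 421107 to 1013797 per library, of which the members took 1870 to 4854 in control and 3281 to 6418 in phagocytosis libraries. The microglial label was checked on 12 markers, all detected, with P2ry12 at no less than 205 CPM (reads scaled to a library total of 1e6) in any library. Library composition moved with state, in exact two-sided permutation tests on summed CPM with Benjamini-Hochberg adjustment over 10 lists. All 12 microglia markers had lower means in phagocytosis libraries (sums 37880 to 53620 CPM in control, 23990 to 52120 in phagocytosis, adjusted p = 0.0127). All 12 border macrophage markers had higher means (864 to 1725 CPM against 1418 to 2450, adjusted p = 0.000136). Of the defining ones Mrc1 averaged 3.39 against 9.49 CPM and Lyve1 0.247 against 4.71. Mrc1 and Lyve1 made up little of the tested sum, which averaged 1091 and 1774 CPM and lay mostly on other markers of the list. Neuron markers were higher for 11 of 12 genes (6.58 to 15.4 CPM against 20.6 to 118, adjusted p = 0.000823), with Uchl1 and Eno2 the most abundant at 32.3 and 11.1 CPM in phagocytosis libraries. Monocyte markers were higher for 10 of 10 genes (18.5 to 89.7 CPM against 25.5 to 252, adjusted p = 0.0220). Oligodendrocyte markers were higher for 6 of 12 (125 to 193 CPM against 169 to 370, adjusted p = 0.00445) and endothelial markers for 5 of 10 (18.4 to 35.4 CPM against 19.2 to 70.3, adjusted p = 0.0160), where Cldn5 had no read. Lymphocyte (251 to 559 CPM against 167 to 430, adjusted p = 0.0160) and neutrophil markers (420 to 681 CPM against 288 to 623, adjusted p = 0.0201) had lower sums in phagocytosis libraries. Single genes were divided, with higher means for 5 of 12 lymphocyte and 5 of 10 neutrophil markers. The astrocyte sum did not pass (58.5 to 137 CPM against 78.3 to 145, adjusted p = 0.725), although 9 of 10 of its genes had higher means. Of a list of 13 predicted genes of satellite-like sequence such as Gm10800, 12 were among the genes summed. Together they took 4.06 to 23.2% of reads in control and 1.52 to 16.3% in phagocytosis libraries (permutation test, adjusted p = 0.00882). Their share was over 20% in 3 controls (female NL4-/- 1, male WT 2 and male NL4-/- 1). The part of these markers and of the satellite-like reads in the proteasome results was not tested, except by leaving out those 3 controls. In bulk libraries, fewer cells of a type and less RNA per cell cannot be told apart.

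Constitutive proteasome transcripts were more abundant in the phagocytosis state. As a share of all reads the 42 genes together took 0.463% ± 0.0624 (SD, n = 8; lowest 0.377, median 0.475, highest 0.549) in control libraries. In phagocytosis libraries the share was 0.662% ± 0.0578 (SD, n = 16; lowest 0.574, median 0.659, highest 0.795). Every phagocytosis library lay above every control library, in both sexes and both genotypes. This share is a description on the library-total scale, on which the satellite-like share also counts.

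**Figure D1:**
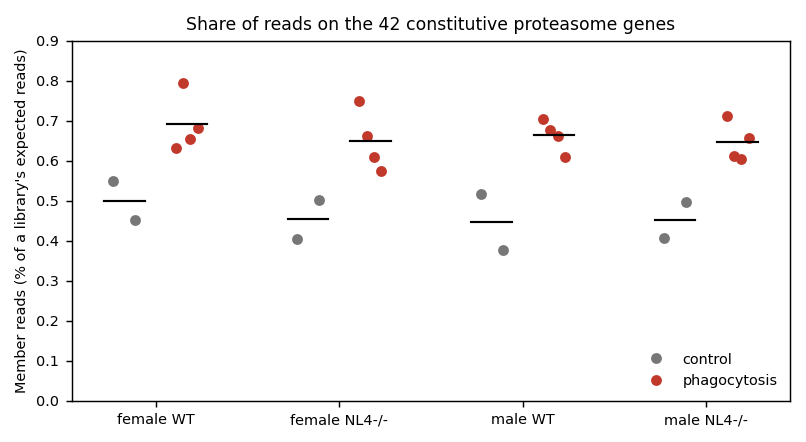
Share of each library's expected reads (percent, vertical axis) that fell on the 42 constitutive proteasome genes, by sex and genotype; points are libraries (2 control and 4 phagocytosis per group) and lines are means. The control points lie between 0.377 and 0.549% and the phagocytosis points between 0.574 and 0.795%.

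Gene by gene, 40 members passed the filter on low counts and were tested with edgeR over all 9803 genes that did. The other two, the testis-type alpha subunit Psma8 and the thymus-type beta subunit Psmb11, had 78 and 85 reads in all libraries together. With state averaged over the 4 combinations of sex and genotype, 25 of 40 members rose (62.5%) and 0 fell at an adjusted p under 0.05. Of all genes tested, 8.39% rose and 5.18% fell. At an unadjusted p under 0.05 there were 29 members, all higher, against 27% of all genes in either direction. The members' median log2 fold change (phagocytosis against control) was 0.45, against -0.01 for all genes tested. Those that rose did so by 1.23- to 2.46-fold (median 1.45-fold). Of the 40 tested members, 31 had a positive fold change within each of the 4 combinations taken alone. The matching share of all genes was not counted. All 25 that rose were among these 31, which their selection on the mean of the 4 combinations favours. The 15 others had log2 fold changes from -0.26 (Psme2b) to 0.88 (Psmc3ip). Of the 25 calls, 17 stood with any single library left out. Without the 3 controls over 20% satellite-like reads, all 25 kept a positive fold change. That of Psmb6 was 0.58 (log2, 0.72 with all controls) and that of Psmd3 1.40 (1.30 with all controls). Fewer of the 25 calls stood in that fit, and fewer of all genes rose. Each group that lost a control there kept a single one. With only the phagocytosis libraries numbered 3 and 4, 16 of the 25 calls stood, and 5.28% of all genes rose.

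**Figure D2:**
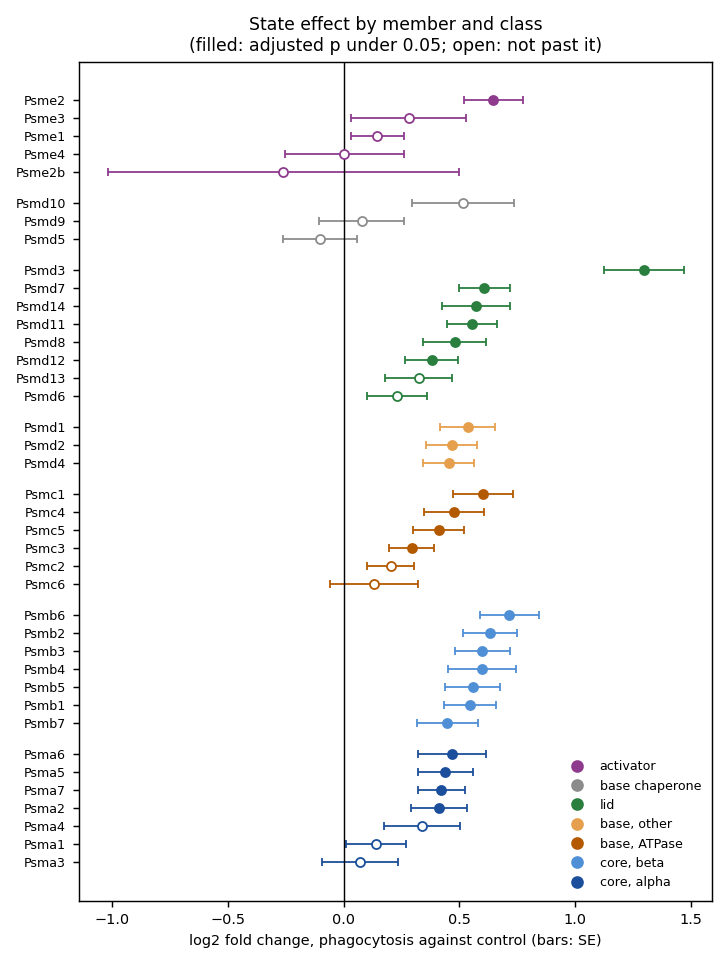
Log2 fold change of phagocytosis against control (horizontal axis, bars are SE) for the 39 tested subunits, chaperones and activators, one per row and coloured by class; filled points have an edgeR adjusted p under 0.05. All 7 tested beta subunits are filled, none of the 3 base chaperones is, and Psmd3 lies farthest right at 1.30.

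Because so many of these genes moved one way, their promoters were searched for 5 short motifs on both strands, from 250 bases before to 50 after the start of transcription (RefSeq, GRCm38.p6). A window was found for 35 members, and 27025 genes served as the background. The antioxidant response element core TGACNNNGC, bound by Nfe2l1 and Nfe2l2, was in the window of 6 of 35 members (17.1%) and of 14.0% of all genes. It was in 3 of the 19 members with a window that rose (Psmb5, Psmb6 and Psmd12) and in 3 of 16 others (Psmc6, Psmd9 and Psme4). The ETS motif CCGGAAG was in 13 members (37.1%, against 9.9% of all genes) and the Sp1 motif GGGCGG in 21 (60.0%, against 38.2%). The NF-Y box CCAAT was in 14 (40.0%, against 41.1%) and the interferon-stimulated response element core in 4 (11.4%, against 4.0%). Of the 19 members with a window that rose, 6 held the ETS motif, 12 the Sp1 motif, 7 the NF-Y box and 2 the interferon core. Of the 16 others, 7, 9, 7 and 2 did, in the same order. The 250 bases before the start are shown for the members that rose and hold the antioxidant core, and for Psmc6, which holds it and did not pass; capitals mark TGACNNNGC or its reverse complement, which overlapped no other of the motifs there. They lie at chr14:54617996-54618245 (minus strand, Psmb5), chr11:70525107-70525356 (plus, Psmb6), chr11:107479278-107479527 (plus, Psmd12) and chr14:45329574-45329823 (plus, Psmc6), each written 5′ to 3′ along the gene. Starts are those of RefSeq and differ from the GENCODE gene bounds used for counting; in GENCODE Psmb6 begins later, at 70525367.
Psmb5: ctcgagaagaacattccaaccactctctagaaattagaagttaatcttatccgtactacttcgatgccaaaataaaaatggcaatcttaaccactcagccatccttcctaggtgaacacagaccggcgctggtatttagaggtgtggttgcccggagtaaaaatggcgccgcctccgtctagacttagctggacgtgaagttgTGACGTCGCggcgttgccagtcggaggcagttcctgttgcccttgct
Psmb6: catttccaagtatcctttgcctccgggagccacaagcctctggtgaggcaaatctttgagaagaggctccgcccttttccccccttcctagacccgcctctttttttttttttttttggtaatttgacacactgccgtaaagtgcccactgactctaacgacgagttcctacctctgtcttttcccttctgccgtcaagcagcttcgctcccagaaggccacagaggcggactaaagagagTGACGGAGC
Psmd12: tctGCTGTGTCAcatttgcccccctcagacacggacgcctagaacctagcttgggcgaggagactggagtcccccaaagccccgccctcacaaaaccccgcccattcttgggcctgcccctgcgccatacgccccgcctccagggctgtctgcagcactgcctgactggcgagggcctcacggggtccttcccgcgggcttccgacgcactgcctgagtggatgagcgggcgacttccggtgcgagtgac
Psmc6: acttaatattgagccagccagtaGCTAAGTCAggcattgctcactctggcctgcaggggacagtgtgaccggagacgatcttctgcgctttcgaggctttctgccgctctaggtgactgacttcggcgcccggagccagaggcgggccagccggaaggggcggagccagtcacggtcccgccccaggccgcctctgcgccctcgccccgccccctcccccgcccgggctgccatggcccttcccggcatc
The core motif ends at the base before the RefSeq start in Psmb6 and 38 bases before it in Psmb5, and lies at the far end of the window in Psmd12 and Psmc6. A match describes these letters only.

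In the beta ring of the core 7 of 7 tested subunits rose (median log2 fold change 0.60). Psmb6 carries the caspase-like catalytic site and lies at chromosome 11, 70525367 to 70527858. In CPM after TMM normalisation, the unit used for members from here on, Psmb6 was at 251 ± 49.9 in control (SD, n = 8; lowest 164, median 245, highest 324) and 412 ± 61.5 in phagocytosis libraries (SD, n = 16; lowest 276, median 427, highest 500). Of the phagocytosis libraries, 14 lay above the highest control. The log2 fold change was 0.72 ± 0.13 (SE, edgeR adjusted p = 0.000318). Psmb5, with the chymotrypsin-like site, went from 161 ± 36.0 (lowest 124, median 146, highest 227) to 236 ± 29.5 (lowest 185, median 235, highest 291), a log2 fold change of 0.56 ± 0.12 (edgeR adjusted p = 0.00203). Psmb7, with the trypsin-like site, was the least abundant of the catalytic subunits and went from 64.5 ± 14.8 (lowest 44.1, median 65.1, highest 82.8) to 87.2 ± 15.1 (lowest 61.7, median 91.1, highest 117). Its log2 fold change was 0.45 ± 0.13 (edgeR adjusted p = 0.0214), and the libraries of the states overlapped for all 3 catalytic subunits. The call of Psmb7 was lost with some single library left out (4 of 24 fits). Its gene bounds overlap those of Nek6 on the other strand (3396 reads). Whether their exons overlap, where reads without strand could not be told apart, was not checked.

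The other tested beta subunits, which have no active site, also rose. Psmb2 averaged 104 ± 22.7 CPM in control and 161 ± 22.2 in phagocytosis libraries (log2 fold change 0.63 ± 0.12, edgeR adjusted p = 0.000534). Psmb3 averaged 138 ± 17.1 and 208 ± 32.3 (0.60 ± 0.12, adjusted p = 0.00105), with 15 of 16 phagocytosis libraries above the highest control. Psmb1 averaged 154 ± 29.4 and 223 ± 34.5 (0.55 ± 0.11, adjusted p = 0.00172), and Psmb4 also passed (0.60 ± 0.15, adjusted p = 0.00637).

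In the alpha ring 4 of 7 tested subunits rose (median log2 fold change 0.41). Psma7, the most abundant alpha subunit per length, averaged 242 ± 31.0 CPM in control (lowest 186, median 252, highest 274) and 324 ± 37.8 in phagocytosis libraries (lowest 250, median 322, highest 400). Its log2 fold change was 0.42 ± 0.10 (edgeR adjusted p = 0.00598), and 15 of 16 phagocytosis libraries lay above the highest control. Psma5 (0.44 ± 0.12, adjusted p = 0.0123), Psma2 (0.41 ± 0.12, adjusted p = 0.0217) and Psma6 (0.47 ± 0.15, adjusted p = 0.0303) also rose, but each lost its call when some single library was left out (1, 4 and 5 of 24 fits). Psma4 (0.34 ± 0.16, adjusted p = 0.179), Psma1 (0.14 ± 0.13, adjusted p = 0.536) and Psma3 (0.07 ± 0.16, adjusted p = 0.839) did not pass. No alpha subunit was tested directly against a beta subunit.

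In the base of the cap 7 of 9 subunits rose (median log2 fold change 0.45), among them all 3 that are not ATPases. Psmd1, a scaffold subunit, was at 150 ± 12.3 CPM in control (lowest 135, median 152, highest 163) and 218 ± 42.4 in phagocytosis libraries (lowest 171, median 206, highest 320). Its states did not overlap; among the 40 tested members the same held only for Psmd7 in the lid (5.0%, against 0.796% of all genes tested that were higher in every phagocytosis library). The log2 fold change of Psmd1 was 0.54 ± 0.12 (edgeR adjusted p = 0.00330). Of its reads, 51.3% in control and 54.6% in phagocytosis libraries were assigned to transcripts annotated for nonsense-mediated decay, and with protein-coding transcripts alone its log2 fold change was 0.19 and no longer passed. Psmd4, a ubiquitin receptor, averaged 161 ± 13.4 and 222 ± 36.3 CPM (log2 fold change 0.45 ± 0.11, adjusted p = 0.00654). Psmd2, the other large scaffold, averaged 239 ± 40.8 and 329 ± 47.3 CPM (0.47 ± 0.11, adjusted p = 0.00525).

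Of the 6 ATPases that unfold substrates, 4 rose. Psmc1 averaged 92.9 ± 19.7 CPM in control (lowest 66.4, median 89.5, highest 132) and 141 ± 29.5 in phagocytosis libraries (lowest 86.5, median 139, highest 198), with 11 of 16 phagocytosis libraries above the highest control. Its log2 fold change was 0.60 ± 0.13 (edgeR adjusted p = 0.00209). Also higher were Psmc5 (0.41 ± 0.11, adjusted p = 0.0112), Psmc4 (0.48 ± 0.13, adjusted p = 0.0130) and Psmc3 (0.29 ± 0.10, adjusted p = 0.0452). Psmc3 lost its call in 10 of 24 fits with 1 library left out, and Psmc4 in 1. Psmc2 (0.20 ± 0.10, adjusted p = 0.203) and Psmc6 (0.13 ± 0.19, adjusted p = 0.715) did not pass.

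The lid held the member with the highest fold change, Psmd3 (chromosome 11, 98682554 to 98695979), a structural lid subunit. In all, 6 of 8 lid subunits rose (median log2 fold change 0.52). Psmd3 was at 92.3 ± 24.8 CPM in control libraries (SD, n = 8; lowest 66.2, median 89.8, highest 138) and 229 ± 61.3 in phagocytosis libraries (SD, n = 16; lowest 85.7, median 238, highest 322). All phagocytosis libraries but female NL4-/- 3, at 85.7, lay above the highest control. The log2 fold change was 1.30 ± 0.17 (edgeR adjusted p = 6.49e-06), a 2.46-fold difference. Among its reads, the share on transcripts with a retained intron was 14.9% in control and 7.04% in phagocytosis libraries.

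Psmd7 and Psmd14 form the pair of related lid subunits of which Psmd14 is the deubiquitinase. Psmd7 went from 103 ± 10.97 CPM (lowest 85.0, median 108, highest 116) to 158 ± 19.2 (lowest 132, median 154, highest 200), with no overlap between states. Its log2 fold change was 0.61 ± 0.11 (edgeR adjusted p = 0.000373). Psmd14 went from 64.0 ± 9.60 (lowest 48.4, median 65.2, highest 76.6) to 95.7 ± 22.0 (lowest 67.4, median 96.6, highest 161), a log2 fold change of 0.57 ± 0.15 (adjusted p = 0.00825), with 12 of 16 phagocytosis libraries above the highest control. Psmd11, a scaffold of the lid, averaged 137 ± 22.4 and 202 ± 23.8 CPM (0.55 ± 0.11, adjusted p = 0.00106). Psmd8 (0.48 ± 0.14, adjusted p = 0.0185) and Psmd12 (0.38 ± 0.12, adjusted p = 0.0247) rose, each with the call lost in 4 of 24 fits that left out 1 library. Psmd13 (0.32 ± 0.14, adjusted p = 0.138) and Psmd6 (0.23 ± 0.13, adjusted p = 0.267) did not pass.

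**Figure D3:**
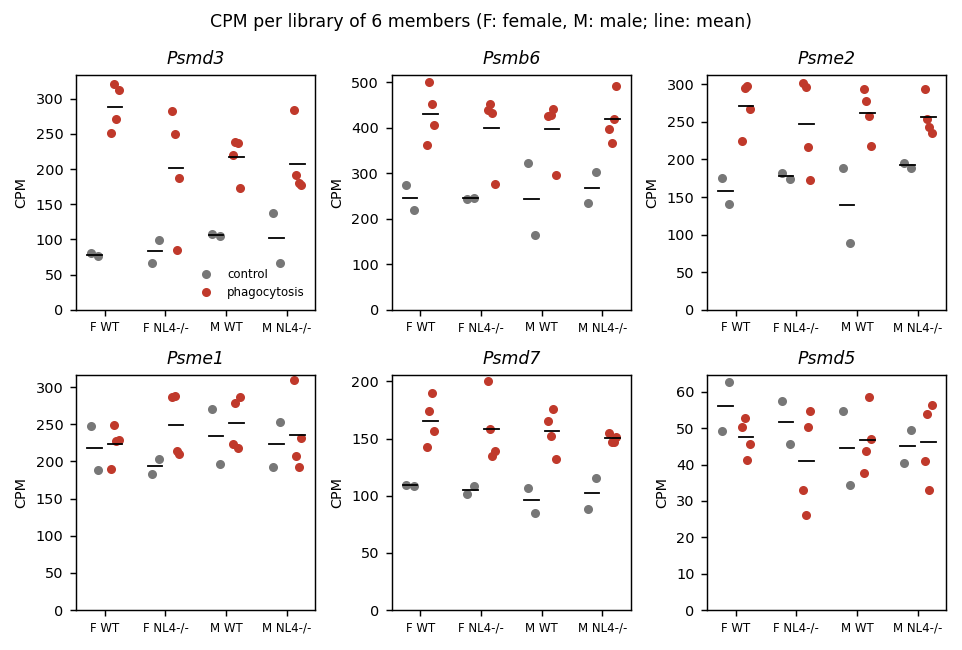
TMM-normalised CPM (vertical axes, from 0) of Psmd3, Psmb6, Psme2, Psme1, Psmd7 and Psmd5 in each library, by sex and genotype; grey points are control, red points phagocytosis and lines means. Psmd3 is above 138 CPM in every phagocytosis library but one, Psmd7 does not overlap between states, and over all 24 libraries the states overlap for Psme1 and Psmd5.

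Of the chaperones that help assemble the base 0 of 3 passed with edgeR (1 at an unadjusted p under 0.05, 0 with DESeq2). Psmd10, the chaperone also called gankyrin, averaged 22.5 ± 4.30 CPM in control (lowest 15.5, median 22.7, highest 27.5) and 32.5 ± 11.3 in phagocytosis libraries (lowest 15.6, median 30.5, highest 50.5), a log2 fold change of 0.52 ± 0.22 (edgeR adjusted p = 0.123). Psmd5 averaged 49.3 ± 9.23 and 45.4 ± 9.47 CPM (-0.10 ± 0.16, adjusted p = 0.741). The third, Psmd9, had a log2 fold change of 0.08 ± 0.18 (adjusted p = 0.842). The states overlapped broadly for all 3 of these genes.

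Among activators only Psme2 passed, 1 of 5. Psme1 and Psme2 encode the alternating subunits of the interferon-inducible PA28 ring and lie near each other on chromosome 14 (Psme1 at 55578123 to 55581529, plus strand; Psme2 at 55587441 to 55591113, minus strand). Psme2 was at 167 ± 35.6 CPM in control (lowest 89.5, median 178, highest 196) and 259 ± 38.3 in phagocytosis libraries (lowest 173, median 262, highest 302), and 15 of 16 phagocytosis libraries lay above the highest control. Its log2 fold change was 0.65 ± 0.13 (edgeR adjusted p = 0.00106). Psme1 was at 217 ± 34.3 (lowest 184, median 200, highest 271) and 240 ± 37.9 (lowest 191, median 228, highest 310), a log2 fold change of 0.15 ± 0.12 (adjusted p = 0.449), and its states overlapped. Per length, the ratio of Psme2 to Psme1 in TPM was 0.860 ± 0.288 in control (SD, n = 8) and 1.17 ± 0.230 in phagocytosis libraries (SD, n = 16), given without a test. Psme2b is a near copy of Psme2, so reads could be split between them; it had 17.5 ± 11.5 and 11.5 ± 11.1 CPM, with libraries at 0 in both states, and a log2 fold change of -0.26 ± 0.76 (adjusted p = 0.890).

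The nuclear activators were scarce. Psme3, the PA28 gamma subunit, averaged 21.8 ± 7.53 CPM in control and 25.2 ± 9.90 in phagocytosis libraries (log2 fold change 0.28 ± 0.25, edgeR adjusted p = 0.505). Psme4, a single-chain activator of the core, averaged 18.3 ± 4.55 and 18.7 ± 7.37 CPM (0.00 ± 0.26, adjusted p = 1). The recombination factor Psmc3ip averaged 7.43 ± 4.55 and 13.3 ± 6.43 CPM (0.88 ± 0.44, adjusted p = 0.181).

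Of the immunoproteasome subunits that replace Psmb5, Psmb6 and Psmb7, Psmb8 rose (0.47 ± 0.11, edgeR adjusted p = 0.00397), while Psmb10 (0.20 ± 0.12, adjusted p = 0.291) and Psmb9 (0.02 ± 0.18, adjusted p = 0.977) did not pass. Per length and without a test, the TPM ratio of Psmb8 to Psmb5 was 1.36 ± 0.308 in control and 1.25 ± 0.185 in phagocytosis libraries, that of Psmb9 to Psmb6 0.143 ± 0.0357 and 0.0858 ± 0.0284, and that of Psmb10 to Psmb7 3.08 ± 0.408 and 2.26 ± 0.625; the states overlapped for all 3 ratios.

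Beyond the members, genes that act with the proteasome were read in the same comparison. Uba1, the main ubiquitin-activating enzyme, rose (0.34 ± 0.10, edgeR adjusted p = 0.0288), as did the ubiquitin genes Rps27a (0.41 ± 0.13, adjusted p = 0.0337) and Ubb (0.34 ± 0.11, adjusted p = 0.0383). Rps27a encodes ubiquitin fused to a ribosomal protein. Among assembly factors, inhibitors and subunits named outside the rule 2 of 9 rose, the ubiquitin receptor Adrm1 (0.57 ± 0.12, adjusted p = 0.00166) and the small cap subunit Sem1 (0.59 ± 0.16, adjusted p = 0.0119). In the list of ubiquitin shuttles and proteasome-bound deubiquitinases 1 of 12 rose, the segregase Vcp (0.40 ± 0.10, adjusted p = 0.00856), a share close to the 8.39% of all genes that rose. Of the transcription factors and processing enzymes that control proteasome genes 0 of 7 passed with edgeR (1 at an unadjusted p under 0.05, 0 with DESeq2); the smallest p was that of Nfe2l1, which drives proteasome genes when proteasome activity falls (0.41 ± 0.15, adjusted p = 0.0649). Without the 3 controls over 20% satellite-like reads, Rps27a kept its call, and Uba1, Ubb, Adrm1, Sem1, Vcp and Psmb8 did not. The median log2 fold changes of these last 3 lists were 0.09, 0.21 and -0.03.

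To compare members with one another, state effects were also tested relative to the summed reads of the 14 tested core subunits, a scale on which the median of all genes is -0.48 and on which 2.71% of all genes rose and 44.6% fell. On this scale, added after the data were seen, Psmd3 was the only member that rose, by 0.81 ± 0.17 (log2, edgeR adjusted p = 0.000683), and it passed with each of the 24 libraries left out in turn. Relative to the core, Psmd5 fell (-0.57 ± 0.18, adjusted p = 0.0110, called in 23 of 24 such fits) and so did Psme1 (-0.32 ± 0.12, adjusted p = 0.0282, 20 of 24). Psma3 (-0.43 ± 0.17, adjusted p = 0.0430), Psma1 (-0.33 ± 0.13, adjusted p = 0.0438) and Psmc2 (-0.27 ± 0.11, adjusted p = 0.0479) also fell, called in 11, 11 and 4 of 24 fits. In all 5 of the 40 members fell on this scale. This share cannot be set against that of all genes, because the 14 core subunits that define the scale are among the 40. Psma1 and Psma3 are themselves part of the reference sum.

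Levels between members were compared per length, as TPM divided by the median TPM of the 14 tested core subunits in the same library. Levels of members were not tested against each other. Over all 24 libraries Psmb6 had the highest mean at 2.50 ± 0.416 (SD), followed by Psma7 at 2.22 ± 0.412, with overlapping SDs. The PA28 subunits came next, Psme2 at 1.43 ± 0.276 and Psme1 at 1.40 ± 0.362. Their SDs overlapped each other and those of Psmb3 (1.35 ± 0.219), Psma1 (1.33 ± 0.261) and Psmb5 (1.31 ± 0.244). ATPases ranged from 0.387 ± 0.114 (Psmc6) to 0.823 ± 0.121 (Psmc3), and lid subunits from 0.414 ± 0.144 (Psmd3) to 0.732 ± 0.154 (Psmd8). The other base subunits were at 0.487 ± 0.114 (Psmd1), 0.527 ± 0.105 (Psmd2) and 0.782 ± 0.152 (Psmd4), so the mean of each base and lid subunit lay below the core median. Psmb7 was the lowest of the ubiquitous core subunits at 0.382 ± 0.0797. Base chaperones were lower, at 0.170 ± 0.0817 (Psmd5), 0.153 ± 0.0452 (Psmd9) and 0.148 ± 0.0416 (Psmd10), and the nuclear activators lower again, at 0.0561 ± 0.0250 (Psme3) and 0.0394 ± 0.0219 (Psme4). Psma8, at 0.0498 ± 0.0527, overlapped these nuclear activators within its SD, and Psmb11 came last at 0.00588 ± 0.00352. On this scale Psmd3 was at 0.287 ± 0.108 in control and 0.477 ± 0.115 in phagocytosis libraries.

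**Figure D4:**
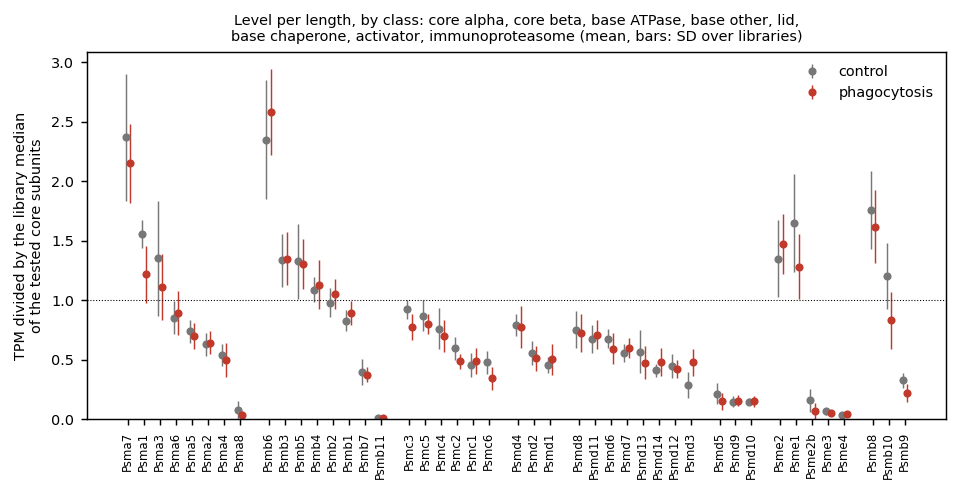
Level per length (TPM divided by the library median of the 14 tested core subunits, vertical axis) of each member and of the 3 immunoproteasome subunits, grouped by class; points are means over 8 control (grey) and 16 phagocytosis (red) libraries and bars are SD. Psmb6 and Psma7 stand highest, near 2.50 and 2.22 over all libraries, and Psme3, Psme4, Psma8 and Psmb11 lie close to 0.

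Some annotations limit what a gene's sum holds. Of Psma3 reads only 28.5% in control and 31.9% in phagocytosis libraries were assigned to protein-coding transcripts. For 13 members another annotated gene overlaps the locus, in 11 on the other strand, and these libraries carry no strand. Overlap was taken between gene bounds, and overlap of exons was not checked. The overlapping genes with the most reads, after Nek6 at Psmb7, were Mlx at Psmc3ip (968 reads in all libraries) and Slc39a13 at Psmc3 (782).

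Within a single sex and genotype the members' median state effect had the same direction but rested on 2 control libraries. Psmd3 in female WT mice was the 1 member that passed: its controls were at 80.1 and 76.2 CPM and its phagocytosis libraries at 251, 322, 271 and 312, so the states did not overlap. The log2 fold change was 1.88 ± 0.35 (edgeR adjusted p = 0.00507), and 0.581% of all genes passed in that comparison in either direction. Without female WT control 1 or 2 the call was lost, with adjusted p up to 0.300. In female NL4-/- mice Psmd3 controls were at 66.4 and 99.5 and phagocytosis libraries at 283, 250, 85.7 and 188 (1.25 ± 0.35, adjusted p = 0.115). Male WT controls were at 107 and 104 and phagocytosis libraries at 221, 238, 238 and 173 (1.04 ± 0.34, adjusted p = 0.327). In male NL4-/- mice the values were 138 and 66.2 against 284, 192, 180 and 177 (1.02 ± 0.35, adjusted p = 0.230). In the 3 groups other than female WT, the highest control lay below every phagocytosis library except for the low one of female NL4-/- mice.

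No other member passed in any of the 4 groups with edgeR, where 0.469% (female NL4-/-), 0.326% (male WT) and 0.602% (male NL4-/-) of all genes did. At an unadjusted p under 0.05 there were 12 members in WT females (12.1% of all genes, in either direction) and 14 in NL4-/- females (9.56%). Males had 18 members in WT (8.22% of all genes) and 10 in NL4-/- (10.9%), and all of these members were higher in phagocytosis libraries. In the same order of groups DESeq2 called 4, 3, 3 and 0 members. The shares of all genes that DESeq2 called in these groups are not given here, so these counts have no background. The members' medians by edgeR were 0.36, 0.43, 0.52 and 0.43 (log2). The 4 comparisons use separate libraries and share only the fit.

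**Figure D5:**
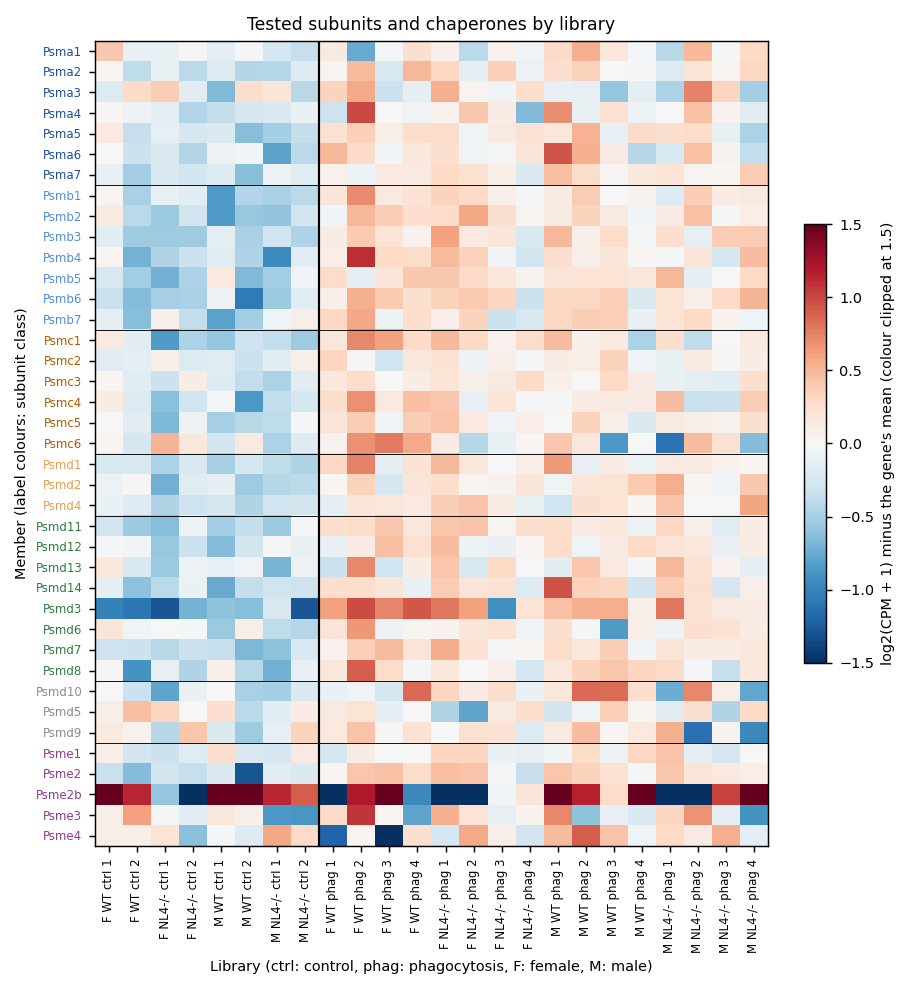
Expression of the 39 tested subunits, chaperones and activators (rows, label colours by class) in the 24 libraries (columns, control left of the line), as log2(CPM + 1) minus the gene's mean, clipped at 1.5. Most core, base and lid rows are blue in the 8 control columns and pale red in the 16 phagocytosis columns; Psmd3 shows the deepest contrast among well-measured rows, and the sparse rows Psme2b, Psme3 and Psme4 vary between libraries of a group.

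Neuroligin-4 genotype moved no member past the threshold. Averaged over sex and state (NL4-/- against WT), 0 of 40 members passed with edgeR, 0 with DESeq2 and 2 at an unadjusted p under 0.05, both lower in NL4-/- (of all genes, 0% at the adjusted threshold and 4.47% unadjusted). The smallest p was that of Psme2b (-1.75 ± 0.69, edgeR adjusted p = 1), the sparse near copy of Psme2. The 39 others ranged from -0.38 ± 0.25 (Psme3) to 0.17 ± 0.26 (Psme4), with a median of -0.05 and a median SE of 0.13. The members' share of reads was 0.691% ± 0.0720 in female WT and 0.648% ± 0.0762 in female NL4-/- phagocytosis libraries (SD, n = 4 each), and 0.663% ± 0.0401 and 0.646% ± 0.0491 in males. These genotype means differed by less than 1 SD in each sex.

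Within each sex and state 0 of 40 members passed for genotype by edgeR or DESeq2, as did 0% of all genes by edgeR. In female controls 1 member had an unadjusted p under 0.05 (2.14% of all genes), Psmc1, lower in NL4-/- (-0.63 ± 0.29, edgeR adjusted p = 1). In female phagocytosis libraries 2 did (5.2% of all genes), the smallest that of Psmc6 (-0.62 ± 0.30, edgeR adjusted p = 0.947). In male controls it was Psmb7 alone (3.34% of all genes), higher in NL4-/- (0.67 ± 0.32, edgeR adjusted p = 1). In male phagocytosis libraries there was none (4.75% of all genes), and the smallest p was that of Psmd10 (-0.58 ± 0.33, edgeR adjusted p = 1). The median SE of a member was 0.29 in female and 0.305 in male controls and 0.20 in both phagocytosis comparisons. Larger log2 differences, such as that of Psmc1 (-0.63) in female and Psmb7 (0.67) in male controls, also did not pass. These libraries therefore cannot show that genotype differences of such sizes are absent.

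The difference of the state effect between genotypes was tested directly. Over both sexes 0 of 40 members passed with edgeR or DESeq2 and 1 had an unadjusted p under 0.05 (0% of all genes adjusted, 2.82% unadjusted). It was Psmb7, whose state effect was lower in NL4-/- (-0.67 ± 0.26, edgeR adjusted p = 1). Within females the smallest p was that of Psmc6 (-1.05 ± 0.51, edgeR adjusted p = 1) and within males that of Psmb7 (-0.79 ± 0.38, edgeR adjusted p = 1), with 1 member each at an unadjusted p under 0.05 (2.57 and 2.52% of all genes).

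Sex moved no member past the threshold either. Males and females of one genotype and state differed in 0 of 40 members by edgeR and DESeq2 in all 4 comparisons, where edgeR called 0% (WT control), 0.0204% (WT phagocytosis) and 0.0102% (both NL4-/- comparisons) of all genes. At an unadjusted p under 0.05 there was 1 member in each WT comparison (3.38% of all genes in control, 7.55% in phagocytosis) and 0 in the NL4-/- ones (1.87 and 2.31%). The smallest p were those of Psmb2 in WT controls (male against female -0.59 ± 0.27, edgeR adjusted p = 1) and Psme4 in WT phagocytosis libraries (1.08 ± 0.42, edgeR adjusted p = 0.580). In NL4-/- mice they were those of Psme2b in controls (3.01 ± 2.00, edgeR adjusted p = 1) and Psmc1 in phagocytosis libraries (-0.27 ± 0.20, edgeR adjusted p = 1). The state effect of no member differed between sexes past the threshold (smallest p for Psma1, 0.50 ± 0.26, edgeR adjusted p = 1), nor did the genotype effect in phagocytosis libraries (smallest p for Psme4, -0.87 ± 0.58, edgeR adjusted p = 0.994); edgeR and DESeq2 called 0 members in both, with 0 at an unadjusted p under 0.05 (1.94 and 4.76% of all genes).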

How the data were processed

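RNA was measured in 24 Smart-Seq2 libraries. Per the file headers, the deposited tables list 116945 transcripts with an expected read count, a TPM, a length and an effective length, a layout used by salmon. The program, its version and any read filters were not given in the sources used. The deposited expected counts are not normalised and carry the division of shared reads among transcripts; the deposited TPM are scaled by length and library. Transcripts were matched to GENCODE vM21 (GRCm38): 116023 matched, and the 922 others, with 0.274 to 0.379% of reads, were left out. Expected counts were summed per gene and rounded (26375 genes with a read).

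Tests used edgeR 4.0.16 with its robust quasi-likelihood method, TMM factors and filterByExpr (minimum count 10), in 1 fit of 8 group means without covariates and 19 comparisons, two-sided, with Benjamini-Hochberg adjustment over the 9803 genes tested and a threshold of 0.05. The biological coefficient of variation was 0.285. Fold changes carry a prior count of 0.125, and SE was worked back from the F statistic. Groups of 2 controls shared the spread of all groups. Deposited TPM and effective lengths served for levels per length and for length-scaled counts. Marker sums were compared by exact permutation, in place of the resampling first planned. No 2 libraries of a group held identical counts. The code was tested on simulated data.

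Alternatives were DESeq2 1.42.0, other scalings and filters, a replicate block, and subsets of libraries or transcripts. In each subunit class at most 4 members past the threshold are described by value, in order of adjusted p, and 2 where none passed, besides the catalytic subunits, Psmd4, Psmd14 and the activators; other members are given by count and fold change. Members and lists were chosen with earlier results of these data known. One list of genes around the proteasome is not reported here as a whole.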

Additional observations from a re-analysis of the deposited data

Results flagged for a closer look

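In groups of 4 phagocytosis libraries, the highest or lowest library was set against the other 3 with Dixon's ratio at its 95% critical value. This was done for 128 combinations of a group with a named member or a class sum, and 10 passed; chance passes about 1 in 20. Values are TMM-normalised CPM.

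Psmb6, a catalytic subunit, was low in female NL4-/- phagocytosis 4, at 276 against 432 to 453 in the other libraries of the group. It was also low in male WT phagocytosis 4, at 296 against 426 to 442, where Psmb7 was low too, at 72.5 against 96.4 to 101. The beta subunit Psmb1 was high in female WT phagocytosis 2, at 320 against 214 to 227. Psmd10, a base chaperone, was high in female WT phagocytosis 4, at 50.5 against 22.9 to 26.5.

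In male NL4-/- phagocytosis 1 the lid subunit Psmd3 was high, at 284 against 177 to 192, as was the sum of the 5 activators, at 655 against 497 to 518. The ATPase Psmc3 was high in male NL4-/- phagocytosis 4, at 302 against 224 to 235, and Psmc4 was low in male WT phagocytosis 1, at 185 against 205 to 207. The sum of the base subunits was high in female NL4-/- phagocytosis 1, at 2102 against 1748 to 1790.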

How the results depend on the processing

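With state averaged over groups, the 25 members that rose kept a positive fold change in every setting run. DESeq2, relative log expression factors, library totals and a minimum count of 20 each called all 25. In the same order 9.22, 8.71, 10 and 10.5% of all genes rose. Counts of members that rose were 22 without a filter on low counts (3.14% of all genes rose, and the median of all genes moved to 0.18). They were 21 with length-scaled counts (5.81% of all genes) and 22 with protein-coding transcripts only (7.23%, chosen after seeing the data). With phagocytosis numbers 3 and 4 only, 16 rose (5.28% of all genes). With numbers 1 and 2 only, 26 were called, of which Psme2b fell (11.1% of all genes rose). With 1 phagocytosis library left out 24 to 25 rose (7.42 to 9.09% of all genes). Fewer members and fewer of all genes rose without the controls over 20% satellite-like reads. With 1 control left out, fewer of all genes rose, and fewer members except without female WT control 1. These fits left a group with 1 control. Within groups, members that rose were, for female WT, 4 with DESeq2, 2 with the replicate block and 0 to 1 with 1 library left out. For female NL4-/- they were 3 with DESeq2, 1 without a filter, 1 with the block, 3 with phagocytosis numbers 1 and 2, and 0 to 1 with 1 library left out. For male WT they were 3, 1, 1 and 1 in the first 4 of these settings, and for male NL4-/- 1 without a filter and 1 with numbers 1 and 2. The shares of all genes called within groups in these settings are not given here. The class median (log2) was 0.53 for base chaperones with length-scaled counts and 0.34 for the base with protein-coding transcripts. Signs turned only for members that had not passed: Psmd5 0.0011 with length-scaled counts; Psme2b 0.69 and Psmd9 -0.0893 without the satellite-rich controls; Psme2b 0.32, Psme4 -0.0803, Psme3 -0.12, Psmd9 -0.0046 and Psma3 -0.11 with phagocytosis numbers 3 and 4; Psme4 -0.0585 with protein-coding transcripts. With 1 library left out Psma3 ranged from -0.0136 to 0.23, Psme2b from -0.56 to 0.60 and Psme4 from -0.10 to 0.13. The cause of these changes was not tested. Genotype, sex and interaction comparisons called 0 members in every setting. Pairing by replicate number was examined by the correlation of deviations from group means between libraries of different groups. The 68 same-number pairs had a median r of 0.004, with 6 above 0.1. The 180 different-number pairs had a median r of -0.00047, with 14 above 0.1. By this measure the numbers did not pair the samples. With the number as a block 24 members rose (9.46% of all genes), 23 of them among the 25. At the depth of these libraries genes at a few CPM are measured coarsely.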
